A study of Mus musculus with 9 samples.

Results

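The early response of SVR cells to propranolol was examined on 6 arrays. Of these, 3 were labelled 50 µM propranolol, 4 h, and 3 were labelled sham, 0 h. SVR is an established mouse line, made by transforming endothelial cells of the pancreatic islet with an activated H-ras gene, and it serves as a model of angiosarcoma, a malignant tumor of cells that line blood vessels. All groups were the same line, grown as a confluent monolayer in medium with serum, and the labels name no vehicle for the sham. The sham cells stand for the start of treatment, so that 4 h more in culture and 4 h of drug cannot be told apart. Probes entered the comparison when their detection p, the chance of such a signal among negative control beads, was under 0.05 on all 3 arrays of either group. This rule kept 11080 of the 25697 probes. They stood for 7613 of the 16593 genes with a named probe, each represented by its brightest tested probe, and 629 further probes carried no gene name. Another 3 arrays of cells held in 50 µM propranolol for 24 h entered the same fit, where they helped to estimate the spread, and their values are set beside those at 4 h for a few genes.

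Propranolol blocks the beta adrenergic receptors, which respond to epinephrine and norepinephrine. These receptors couple through the Gs protein to adenylyl cyclase, and the cyclic AMP that is made drives protein kinase A and the transcription factor CREB. Propranolol is also an amphiphilic weak base, and in cell culture at micromolar concentrations it has long been used to inhibit phosphatidate phosphatase, the lipid enzyme activity carried by the lipin proteins. Transcripts that move within hours of a treatment commonly belong to genes whose messages are short-lived or to the targets of transcription factors that are held ready in the cell. These factors include the SREBPs, which control sterol synthesis, ATF4, which answers amino acid shortage and other stresses, YAP with its TEAD partners, which answer cell shape and tension, and MYC, which controls growth.

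The 6 arrays were alike in quality. Between 11494 and 12033 probes were detected on the 4 h arrays, against 11454 to 11901 on the sham arrays, and the mean intensity of an array lay between 326.6 and 373.2 at 4 h, against 306.5 to 387.7 in sham. Of 16 endothelial marker genes with a named probe, 13 were detected at 4 h and 13 in sham, among them Pecam1, Cdh5, Tie1 and Eng. Of 7 leukocyte markers only Cd14 was detected, of 8 fibroblast markers only Pdgfra, and of 3 islet markers none. Of 6 pericyte and smooth muscle markers, Cspg4 and Des were detected on all 3 arrays at 4 h and 0 were in sham. Their log2 fold changes were 0.12 and 0.26 in rising order, and neither passed the adjusted p. Hba-a1, the only red cell marker with a named probe, was detected in both groups. Of 5 epithelial markers, 3 keratins were detected at 4 h and 2 in sham, and the summed intensity of the 5 markers lay between 766.8 and 818.4 at 4 h, against 928.7 to 1182 in sham; its part in the results was not tested. Arrays within a group correlated at r = 0.995 to 0.996 over the tested probes, and a 4 h array correlated with a sham array at r = 0.987 to 0.989. All 6 arrays sat on the same BeadChip, with each group at neighboring positions, so that position and group cannot be told apart. The study's methods, which give the 24 h experiment, describe labelling of RNA pooled from biological replicates, so the p-values below measure the spread between these arrays, which may be technical.

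Many genes moved a little by 4 h, and few moved a lot. A gene was called when its difference reached an adjusted p under 0.05 in limma's moderated test, with Benjamini-Hochberg adjustment over all 11080 probes, and a fold of at least 1.5. By this rule 163 genes were higher at 4 h (2.14% of the genes tested) and 160 were lower (2.10%), in all 323 genes (4.24%). Of the genes tested, 7116 were detected on all 6 arrays, among them 150 of those called higher and 154 of those called lower. The other 13 and 6 calls entered through 1 group only, and their p-values rest in part on signals that were not detected. At 2-fold, 27 genes were higher (0.355%) and 29 lower (0.381%), in all 56 (0.736%). With no minimum fold, 1078 genes were higher (14.2%) and 955 lower (12.5%), in all 2033 (26.7%). The median log2 fold change over all genes tested was 0.01, and its quartiles were -0.14 and 0.16.

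The called genes were spread over the whole range of signal. Of those higher at 4 h, 37, 58, 46 and 22 fell in 4 equal bins of the tested genes from dim to bright, and of those lower, 32, 51, 46 and 31. In all 323 the 4 h arrays did not overlap the sham arrays; among all genes tested, 23.6% had 4 h arrays entirely above the sham arrays and 20.1% entirely below, in all 43.7%. Among called genes with other tested probes, 49 were higher and 39 lower; another probe was called the same way for 20 and 24 of them, and for none in the opposite way. Most calls lay between 1.5 and 2-fold, 136 of those higher and 131 of those lower. The edge of the rule was a matter of degree: Zbtb9 and Lrrc75a lay just inside it at log2 fold changes of 0.59 and 0.59, and Idua and Tmem86a just outside at 0.58 and 0.58. On the other side Nt5dc3 lay just inside at -0.59 and Kdm8 just outside at -0.58. Without background correction, Zbtb9, Lrrc75a and Nt5dc3 stood at 0.21, 0.45 and -0.36.

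**Figure D1:**
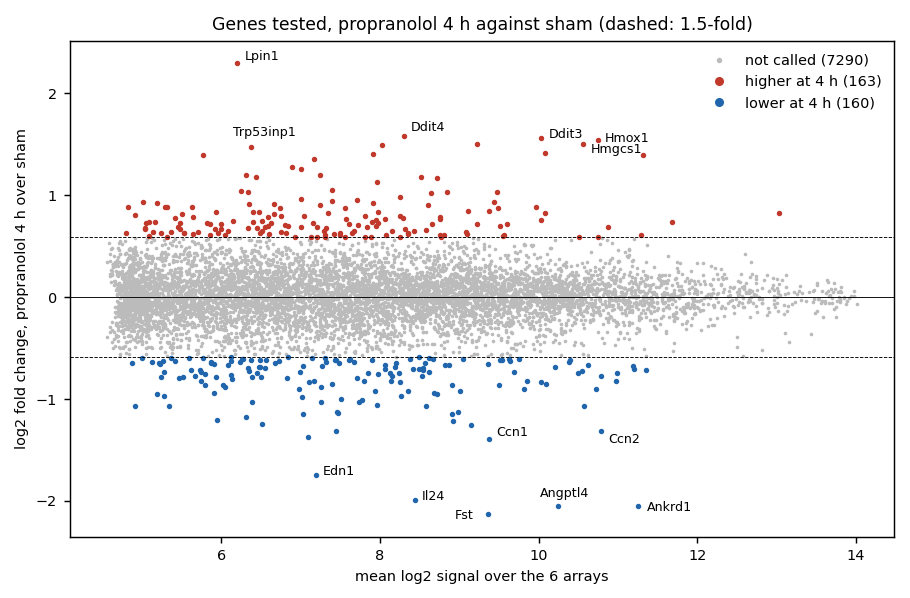
Each point is a gene, with its mean log2 signal over the 6 arrays on the x axis and its log2 fold change, propranolol 4 h over sham, on the y axis; red and blue points are the genes called higher and lower. The 163 and 160 called genes lie outside the dashed lines at 1.5-fold and occur at all signal levels, with Lpin1 highest at 2.29 and Fst lowest at -2.13.

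The size of a fold change depended on the background correction, which subtracts the signal of negative control beads and so widens the differences of dim probes. Without it, 55 genes were higher at 1.5-fold (0.722%) and 66 lower (0.867%), in all 121 (1.59%), and every one of these was among the 163 and 160. All 323 called genes kept their direction. Scaling the uncorrected signals to each array's 75th percentile gave 53 genes higher and 81 lower, so that 39.6% of the called genes were higher, against 50.5% by the rule above. Below, a call that did not reach 1.5-fold without the correction is said to rest on it.

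**Figure D2:**
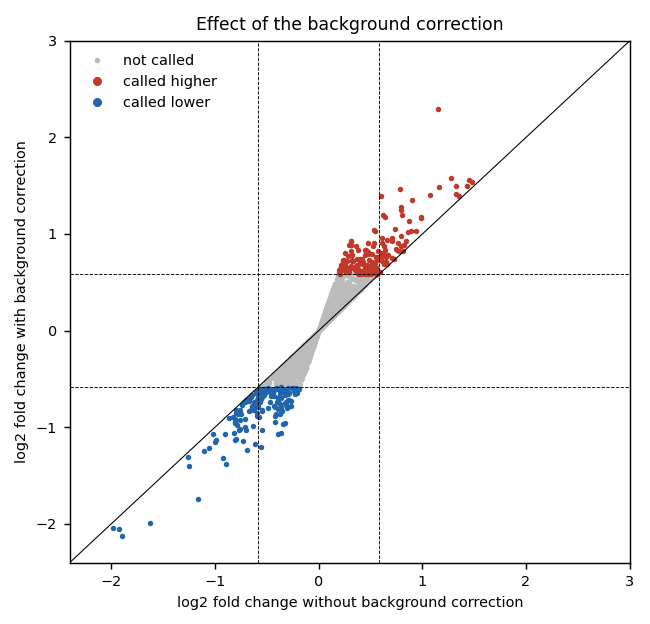
Each point is a gene, with its log2 fold change (propranolol 4 h over sham) without background correction on the x axis and with it on the y axis; the solid line marks equal values and the dashed lines 1.5-fold. Points lie farther from 0 on the y axis than on the x axis, and the called genes between the vertical dashed lines are those whose calls rest on the correction.

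The enzymes of cholesterol synthesis rose together. Of 13 tested members of the pathway, 10 were called higher and 0 lower, and 12 passed the adjusted p with a higher level, at a median log2 fold change of 0.98, against 0.01 over all genes tested. These enzymes turn acetyl-CoA into mevalonate, isoprenoids and finally sterols, and their genes are the classic targets of SREBP2, which is released to the nucleus when membranes run low in sterol. Hmgcs1, the cytosolic synthase that makes HMG-CoA, stood at log2 signals of 11.23, 11.32 and 11.39 on the 4 h arrays, against 9.86, 9.73 and 9.85 on the sham arrays. The groups were far apart, with a 2.83-fold rise (SE of the log2 fold change 0.07) at an adjusted p of 6.7e-07. Fdps, which makes farnesyl diphosphate, stood at 11.99, 12.09 and 11.96 at 4 h, against 10.43, 10.71 and 10.69 in sham, a 2.63-fold rise. Sham replicate 1 was the lowest of the 6 for this gene, and no sham array came near the 4 h arrays.

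The rise reached both the early and the late steps of the pathway. Mvd, which decarboxylates mevalonate diphosphate, rose 2.80-fold and Pmvk, a kinase of the step before it, 1.60-fold. Past squalene, Cyp51, the lanosterol demethylase, rose 2.82-fold, Msmo1, which oxidizes the methyl groups of sterols, 2.67-fold, and Nsdhl, which acts beside it, 2.29-fold. Lss, which closes the sterol rings, rose 1.97-fold, Sqle, the squalene epoxidase, 1.61-fold, and Hsd17b7 1.53-fold. The calls of Pmvk and Hsd17b7 rested on the background correction, and the other 8 held without it. Of the 3 members that were not called, Sc5d and Dhcr7 passed the adjusted p at log2 fold changes of 0.50 and 0.42, and Ebp stood at 0.20.

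Among 8 tested genes of sterol uptake and SREBP control, only Insig1 was called. Insig1 encodes a membrane protein of the endoplasmic reticulum that retains the SREBPs when sterol is plentiful, and it is itself a target of theirs. It stood at log2 signals of 7.92, 7.86 and 7.76 at 4 h, against 6.38, 6.54 and 6.55 in sham, a 2.56-fold rise with an adjusted p of 2.2e-06. Its other probes differed in size, between 0.23 and 1.27. Srebf2, the gene of SREBP2, stood at 8.30, 8.30 and 8.31 at 4 h, against 7.73, 7.80 and 7.80 in sham, so that its arrays did not overlap, and its log2 fold change of 0.53 ± 0.07 was short of 1.5-fold. Srebf1 overlapped between the groups, with a log2 fold change of 0.11 ± 0.16.

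A search of the promoters given by RefSeq (GRCm38.p6, 250 bases before to 50 after each start) described what the sterol genes share. The bases CCAAT, read on either strand and searched for after the values were known, are the box of the factor NF-Y, a partner of the SREBPs. They occurred in the promoters of all 11 tested cholesterol genes that had one, 8 called and 3 not, against 41.1% of all 27025 genes with a promoter and 53.4% of all genes called higher. A sterol regulatory element of the form TCACNCCAC was found in 1.44% of all genes with a promoter and in 3.05% of the called higher genes, and among the called cholesterol genes in Hmgcs1 only. The stretch is shown because Hmgcs1 alone among them held the element; it lies at chr13:119690184-119690252 on the + strand, and the capitals mark the element, which starts 137 bases before the transcript start.
Hmgcs1: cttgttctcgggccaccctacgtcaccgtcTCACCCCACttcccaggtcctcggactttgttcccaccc
A match of letters is not a test of binding, and other forms of the element were not searched for.

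Some lipid genes beyond the sterols rose as well. Lpin1, which encodes a phosphatidate phosphatase that also acts in the nucleus, had the largest rise of all genes tested. It stood at log2 signals of 7.37, 7.33 and 7.35 at 4 h, against 5.16, 4.92 and 5.09 in sham, a log2 fold change of 2.29 ± 0.07 and 4.90-fold, with an adjusted p of 7.6e-08. The sham signal was dim, and the log2 fold change without background correction was 1.15. The related Lpin2 and Lpin3 stood at log2 fold changes of -0.16 and -0.31. Of 16 tested genes of fatty acid synthesis and activation, 5 were called higher and 0 lower, and 11 passed the adjusted p with a higher level and 1 with a lower level, at a median log2 fold change of 0.41. Fads2, the delta-6 desaturase, rose 1.87-fold, Aacs, which activates acetoacetate for lipid synthesis, 1.85-fold, Scd2, a stearoyl-CoA desaturase, 1.79-fold, Acsl3, a ligase of long-chain fatty acids, 1.73-fold, and Acss2, which activates acetate, 1.68-fold. Only the call of Acss2 rested on the background correction. Acly, which supplies cytosolic acetyl-CoA, passed the adjusted p at 0.38. Fasn, the palmitate synthase, was detected at 4 h only and entered the comparison through that group, which gives a rise of at least 1.21-fold. Idh1, a cytosolic source of NADPH, stood at 8.65, 8.54 and 8.65 at 4 h, against 7.30, 7.05 and 7.28 in sham, and rose 2.65-fold. Among 18 genes of glycerolipid and phospholipid synthesis, at a median of 0.01, 5 passed the adjusted p with a higher level and 3 with a lower level, and 2 were called, Lpin1 and Pcyt2, which makes the CDP-ethanolamine of phosphatidylethanolamine; Pcyt2 stood at a log2 fold change of 0.65, and at 0.58 without sham replicate 3, which is below 1.5-fold, and its call rested on the background correction.

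Part of the ATF4 program rose and part did not. Of 25 tested members of this list, 8 were called higher and 0 lower, and 13 passed the adjusted p with a higher level, at a median log2 fold change of 0.26. ATF4 is a bZIP factor whose translation increases when the initiation factor eIF2 is phosphorylated, and with CHOP it controls amino acid transport, glutathione supply and arrest. Ddit3, the gene of CHOP, stood at log2 signals of 10.85, 10.84 and 10.76 at 4 h, against 9.20, 9.25 and 9.31 in sham. Ddit4, which encodes REDD1, an inhibitor of the growth kinase complex mTORC1, stood at 9.17, 9.07 and 9.03 at 4 h, against 7.46, 7.53 and 7.55 in sham. Neither gene's groups overlapped; the rises were 2.95-fold for Ddit3 (adjusted p = 6.1e-07) and 2.98-fold for Ddit4 (adjusted p = 9.4e-07).

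The other risers of the ATF4 list were transporters and regulators. Slc6a9, a glycine transporter, rose 1.94-fold, Slc7a11, the exchanger that brings cystine in, 1.88-fold, Trib3, a pseudokinase that restrains ATF4 and AKT, 1.87-fold, Sesn2, a leucine sensor, 1.74-fold, Nupr1, a small stress-induced nuclear protein, 1.69-fold, and Chac1, which degrades glutathione, 1.51-fold. The calls of Slc7a11, Sesn2 and Chac1 rested on the background correction, and the second probe of Sesn2 stood at 0.32. Biosynthetic members of the list did not pass the adjusted p. Asns, the asparagine synthetase, stood at a log2 fold change of 0.12 ± 0.06, and Psat1, Phgdh, Shmt2 and Mthfd2, enzymes of serine and one-carbon supply, between -0.13 and 0.07. Atf4 itself stood at 11.27, 11.31 and 11.26 at 4 h, against 11.05, 11.15 and 10.90 in sham, without overlap and with a log2 fold change of 0.25 ± 0.08 at an adjusted p of 0.044. Atf3, another bZIP gene of the stress response, overlapped between groups at 0.11 ± 0.10, and none of the 18 tested aminoacyl-tRNA synthetases was called in either direction, while 1 was called lower without propranolol replicate 1, sham replicate 1 or sham replicate 3.

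The promoters of 4 of the 8 called ATF4 genes held an amino acid response element, searched for as TGATGNAA on both strands, as did 6 of all 22 tested genes of the list with a promoter, against 4.51% of all genes with a promoter and 5.34% of the genes called higher. The 4 stretches are shown because the element is the site that ATF4 and CHOP dimers are known to bind, and the capitals mark it. They lie at chr3:50443623-50443709 (- strand) for Slc7a11, chr2:119351019-119351086 (+ strand) for Chac1, chr7:126625543-126625610 (- strand) for Nupr1 and chr2:152344011-152344076 (- strand) for Trib3.
Slc7a11: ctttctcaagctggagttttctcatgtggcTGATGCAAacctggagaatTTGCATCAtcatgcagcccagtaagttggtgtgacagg
Chac1: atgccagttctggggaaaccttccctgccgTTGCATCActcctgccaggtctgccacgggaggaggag
Nupr1: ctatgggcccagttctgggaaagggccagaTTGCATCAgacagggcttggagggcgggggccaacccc
Trib3: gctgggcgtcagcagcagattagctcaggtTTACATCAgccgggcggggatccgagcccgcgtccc
Slc7a11 held a pair of elements in opposite orientation, 66 and 47 bases before the start. In Chac1 and Nupr1 the element began 193 and 110 bases before the start, and in Trib3 it lay 15 bases after it. The element overlapped no other motif that was searched for.

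Genes of the oxidative stress response moved unevenly. Of 18 tested NRF2 targets, 3 were called higher and 0 lower, and 7 passed the adjusted p with a higher level, at a median of 0.20. NRF2 is the factor that answers electrophiles and oxidants. Hmox1, which encodes heme oxygenase 1, stood at log2 signals of 11.47, 11.51 and 11.57 at 4 h, against 9.80, 10.07 and 10.04 in sham, a 2.91-fold rise with an adjusted p of 1.3e-06. Sqstm1, the autophagy receptor p62, rose 1.67-fold. The third call was Slc7a11, which the ATF4 list also holds. Nqo1, a quinone reductase, stood at 0.54 ± 0.07 and passed the adjusted p short of 1.5-fold, while without sham replicate 3 it reached 0.59 and was called. Txnrd1, Prdx1 and Taldo1, which supply thiol reduction and NADPH, stood between -0.09 and 0.05. Mt1, a metallothionein, rose 1.77-fold. No member of the ER chaperone list (17 tested) or the heat shock list (14 tested) was called, and their medians were -0.00 and 0.12. Herpud1, an ER degradation gene, and Dnajb1, a heat shock cochaperone, were the highest of each at 0.58 and 0.52, past the adjusted p but short of 1.5-fold. Without sham replicate 3, 1 member of each list was called higher, and without propranolol replicate 3, 1 of the ER chaperone list.

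Some genes of the lysosome rose, most of them by small amounts. Of 15 tested subunits of the vacuolar proton pump, which acidifies lysosomes, all had a positive log2 fold change, 8 passed the adjusted p with a higher level and 1 was called, at a median of 0.21. That gene was Atp6v1b2, which stood at 10.39, 10.49 and 10.59 at 4 h, against 9.64, 9.65 and 9.70 in sham, a 1.77-fold rise with an adjusted p of 6.7e-05. Of 23 lysosomal enzymes and membrane proteins, 11 passed the adjusted p with a higher level and 0 with a lower level, at a median of 0.19, and none was called; without propranolol replicate 1 or propranolol replicate 3, 1 was called higher. Neu1, a sialidase, Lipa, the acid lipase that frees cholesterol from its esters, and Mcoln1, a calcium channel of the lysosome, were the highest at 0.56, 0.48 and 0.44. The cathepsins Ctsd, Ctsl and Ctsb stood at -0.23, -0.04 and 0.03. Ctns, the cystine exporter of the lysosome, lay outside these lists and was among the 20 largest rises. It stood at 7.91, 7.80 and 7.83 at 4 h, against 6.61, 6.65 and 6.70 in sham, a 2.29-fold rise.

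Of 16 tested autophagy genes, 4 were called higher and 0 lower, at a median of 0.17. Ulk1, the kinase that starts autophagosome formation, stood at 6.84, 6.89 and 6.93 at 4 h, against 5.98, 6.12 and 6.06 in sham, and rose 1.78-fold. Sqstm1 was another, Gabarapl1, an ATG8 protein of the autophagosome membrane, rose 1.53-fold and Uvrag, a subunit of a lipid kinase complex that acts in autophagy, 1.51-fold. Only the call of Sqstm1 held without the background correction. Uvrag lay at the edge of the rule, with 0.57 without propranolol replicate 3, 0.57 without sham replicate 1 and 0.58 without sham replicate 3, and Gabarapl1 stood at 0.57 without sham replicate 1, which left 2 calls in the list. The core genes Becn1, Atg5 and Atg16l1 stood at -0.05, -0.05 and -0.14.

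**Figure D3:**
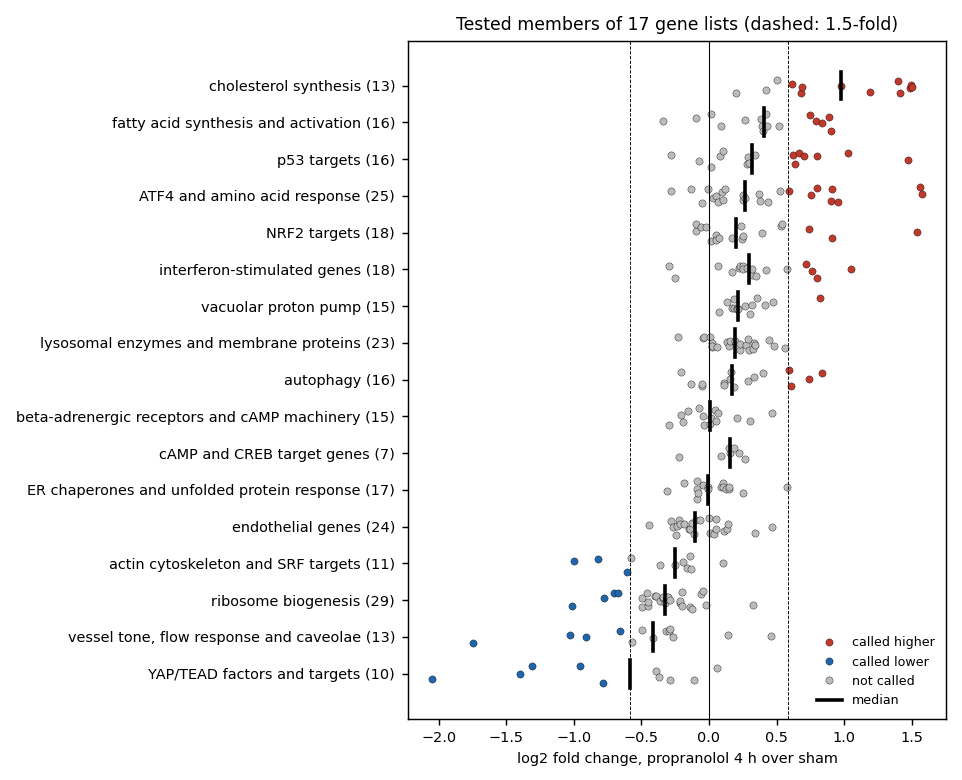
Each point is a tested gene of the list named on the left, with the number tested in parentheses, and the x axis gives its log2 fold change, propranolol 4 h over sham; black bars are medians and dashed lines mark 1.5-fold. The cholesterol synthesis members lie highest, at a median of 0.98, and the YAP/TEAD members lowest, at -0.59, while the cAMP and endothelial lists hold no called gene.

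Genes that p53 is known to induce were higher in part. Of 16 tested, 7 were called higher and 0 lower, and 11 passed the adjusted p with a higher level, at a median of 0.32. Trp53inp1, which acts in cell death and autophagy, stood at log2 signals of 7.22, 7.10 and 7.01 at 4 h, against 5.63, 5.55 and 5.74 in sham, a 2.77-fold rise. Gadd45a, a growth arrest gene, rose 2.04-fold, Sesn1, a sestrin, 1.63-fold, Bbc3, which encodes the death protein PUMA, 1.59-fold, Fas, a death receptor, 1.56-fold, and Tnfrsf10b, the TRAIL receptor, 1.54-fold. Sesn2 was the remaining call, and it stands on the ATF4 list too. Only Trp53inp1 and Gadd45a kept their calls without the background correction, and the second probes of Bbc3 and Fas stood at 0.16 and 0.24. Cdkn1a, which encodes the cell cycle inhibitor p21, stood at 11.37, 11.39 and 11.40 at 4 h, against 11.14, 11.09 and 11.07 in sham. Its groups did not overlap, and the difference was 0.28 ± 0.05 at an adjusted p of 0.0043; its other probes stood at 0.34 and 0.67, of which the higher was called. Mdm2, the ligase that restrains p53, stood at 0.34 and also passed.

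Cell cycle and survival genes moved within 1.5-fold with few exceptions. Of 18 tested G1 cyclins, kinases and inhibitors, only Ccnd2, the cyclin D2 gene, was called, at 1.71-fold lower. Ccnd1, the cyclin D1 gene, stood at 12.61, 12.46 and 12.58 at 4 h, against 13.07, 13.03 and 13.12 in sham, a log2 difference of -0.52 ± 0.07 that passed the adjusted p; averaged over its 3 probes it was -0.65 and was called. Without sham replicate 1 the list had 2 calls in the lower direction, and without propranolol replicate 1 or sham replicate 3 it had 1 in the higher direction. None of 24 DNA replication genes and none of 18 mitotic genes was called, at medians of 0.06 and 0.09. In the BCL2 family, the genes Bcl2, Bcl2l2, Mcl1 and Bcl2l1, whose products protect cells from death, stood between -0.49 and -0.35, and Bcl2l11 and Bik, whose products promote it, at 0.51 and 0.56, all past the adjusted p and short of 1.5-fold, though another probe of Bcl2 was called at -0.69. Of 19 tested genes of this family and the caspases, Bbc3 and Casp9, the caspase of the mitochondrial pathway, were called; Casp9 rose 1.55-fold, and both calls rested on the background correction.

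A few interferon-stimulated genes rose, by amounts that rested largely on dim probes. Of 18 tested, 4 were called higher and 0 lower, at a median of 0.30. Rsad2, an antiviral enzyme, stood at 8.01, 7.80 and 7.96 at 4 h, against 6.84, 6.88 and 6.89 in sham, a 2.07-fold rise, and Oasl1 rose 1.70-fold. Stat2, which carries the interferon signal to the nucleus, was detected on all 3 arrays at 4 h and on none in sham. Against the lowest signal among detected probes of the sham arrays it was at least 1.56-fold higher. It entered the comparison through the 4 h arrays only, so its call rests on sham signals that were not detected. Ifit3 stood at 6.22, 6.45 and 6.41 at 4 h, against 5.76, 5.33 and 5.85 in sham, and without sham replicate 2, the lowest of the 3, its log2 fold change was 0.56, below 1.5-fold. Only Rsad2 and Oasl1 kept their calls without the background correction. Cxcl10, a chemokine that interferons induce, rose 1.59-fold, a call that rested on the correction. Isg15 and Ifit2 stood at 0.23 and 0.06.

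Clock output genes were among the risers. Dbp, a transcription factor whose message follows the daily clock, stood at 9.32, 9.27 and 9.30 at 4 h, against 8.21, 8.09 and 8.10 in sham, a 2.24-fold rise, and its relative Tef rose 1.66-fold. Of 12 tested clock genes these 2 were called, and the call of Tef rested on the background correction. Per1 and Per2, which the clock and cyclic AMP both induce, stood at 0.15 and 0.16, and Nr1d1, a repressor of the loop, passed the adjusted p at -0.41. Zfp36 and Btg1, which act in the decay of messages, rose 1.54-fold and 1.53-fold. Both were near the edge of the rule, and the call of Zfp36 rested on the background correction. Zfp36 stood at 0.58 without propranolol replicate 1 and 0.56 without sham replicate 2, and Btg1 at 0.56 without sham replicate 1.

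**Figure D4:**
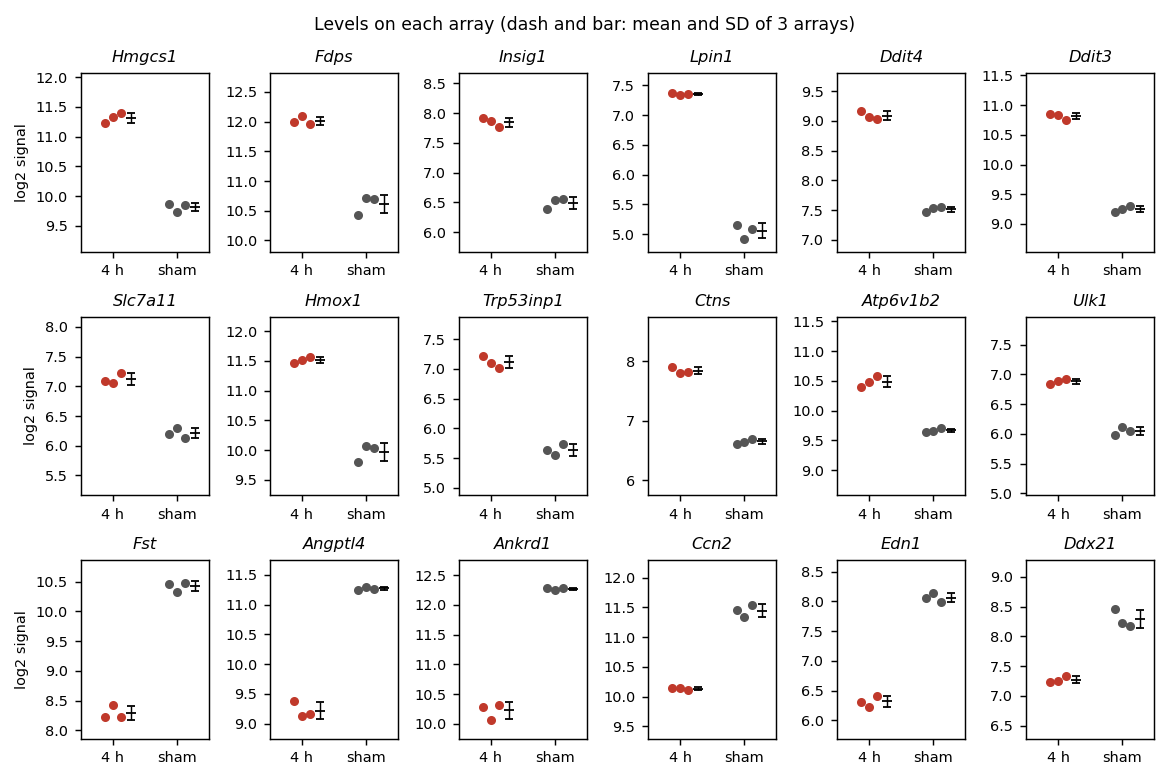
The log2 signal of 18 genes on each of the 3 arrays at propranolol 4 h (red, left) and in sham (gray, right), with the mean and SD of 3 arrays beside the points; every y axis spans the same range of log2 signal around the gene's mean. The first 12 genes are higher and the last 6 lower at 4 h, and in none do the groups overlap.

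The 4 largest falls were those of Fst, Angptl4, Ankrd1 and Il24. Fst encodes follistatin, which binds and neutralizes activins. It stood at log2 signals of 8.23, 8.43 and 8.22 at 4 h, against 10.47, 10.33 and 10.47 in sham, a 4.37-fold fall with an adjusted p of 1.9e-07. Inhba, whose product forms activin A, also fell, 2.21-fold. Angptl4, a secreted inhibitor of lipoprotein lipase, stood at 9.38, 9.12 and 9.16 at 4 h, against 11.25, 11.29 and 11.27 in sham, a 4.15-fold fall. Il24, a cytokine of the IL-10 family, stood at 7.49, 7.38 and 7.46 at 4 h, against 9.43, 9.39 and 9.47 in sham, a 3.96-fold fall. The sham arrays of these genes lay close together, and each gene's 4 h arrays were well below them.

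Of 10 tested YAP/TEAD factors and targets, 5 were called lower and 0 higher, and 8 passed the adjusted p with a lower level, at a median of -0.59. YAP enters the nucleus in spread and tense cells and is held out of it in dense or relaxed ones. Ankrd1, a nuclear and muscle protein, is often used as a readout of YAP. It stood at 10.29, 10.06 and 10.33 at 4 h, against 12.28, 12.25 and 12.28 in sham, a 4.13-fold fall with an adjusted p of 1.9e-07. Ccn1 (CYR61) and Ccn2 (CTGF), secreted proteins of the matrix, fell 2.63-fold and 2.48-fold. For Ccn1 the values were 8.71, 8.67 and 8.65 at 4 h, against 10.09, 10.04 and 10.09 in sham, and its other probes stood at -1.62 and -1.15. Amotl2, an angiomotin that binds YAP, fell 1.94-fold, and Gadd45b 1.72-fold; both calls rested on the background correction, and Amotl2 was detected on only 2 of the 4 h arrays. Axl and Tead4 passed the adjusted p at -0.37 and -0.39, and another probe of Tead4 was called at -0.60.

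The promoters of 3 of the 4 called YAP/TEAD genes that had one held the TEAD site GGAATG on either strand, which was searched for after the values were known. So did all 3 tested genes of the list that had a promoter and were not called, 6 of 7 in all. The site occurred in 16.6% of all genes with a promoter, in 11.5% of the genes called higher and in 23.1% of the genes called lower. The 3 stretches are shown with the site in capitals. They lie at chr19:36119932-36120084 (- strand) for Ankrd1, chr3:145650053-145650118 (- strand) for Ccn1 and chr9:102717709-102717774 (+ strand) for Amotl2.
Ankrd1: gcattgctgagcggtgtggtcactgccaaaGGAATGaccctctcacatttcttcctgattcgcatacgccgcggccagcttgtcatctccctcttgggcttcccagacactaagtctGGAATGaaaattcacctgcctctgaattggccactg
Ccn1: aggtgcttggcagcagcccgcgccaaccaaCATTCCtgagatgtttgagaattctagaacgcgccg
Amotl2: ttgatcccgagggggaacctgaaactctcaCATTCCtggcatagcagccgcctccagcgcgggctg
Ankrd1 held a pair of sites, 210 and 123 bases before the start, of which the nearer overlapped a heat shock element, searched for as GAANNTTC; 9.04% of all genes with a promoter held that element. In Ccn1 and Amotl2 the site began 103 and 65 bases before the start.

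Genes of the actin cytoskeleton and of SRF, the serum response factor that works with it, fell in part. Of 11 tested, 3 were called lower and 0 higher, at a median of -0.25. Fhl2, a LIM protein of stress fibers, fell 2.00-fold, Cnn2, a calponin, 1.77-fold, and Srf itself 1.52-fold. Fhl2 alone kept its call without the background correction. Cnn2 varied widely, with 6.56, 6.82 and 6.88 at 4 h, against 7.63, 7.89 and 7.21 in sham, and it lost its call without propranolol replicate 1 (adjusted p = 0.055) or sham replicate 2 (adjusted p = 0.055). Srf stood at -0.56 without propranolol replicate 1, and its second probe at -0.32. The actin genes Actb and Actg1 stood at -0.19 and -0.25 and did not pass. Map1b, which binds microtubules, fell 2.19-fold on its brightest probe, while its other probes stood at -0.60 and 0.04 and the mean over its probes was -0.56, below 1.5-fold. Thbs1, a matrix protein that restrains vessel growth, and Has2, which makes hyaluronan, fell 2.30-fold and 2.10-fold, both on dim probes whose calls rested on the correction.

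Genes for the tone and surface of vessels were lower. Of 13 tested, 4 were called lower and 0 higher, and 10 passed the adjusted p with a lower level and 1 with a higher level, at a median of -0.41. Edn1, the gene of the constrictor peptide endothelin 1, stood at 6.31, 6.22 and 6.42 at 4 h, against 8.05, 8.14 and 7.99 in sham, a 3.36-fold fall with an adjusted p of 3.3e-07. Thbd, which encodes the anticoagulant receptor thrombomodulin, fell 2.04-fold, Cavin2, which shapes caveolae, 1.87-fold, and Esm1, a proteoglycan of sprouting endothelium, 1.58-fold. Of these only the call of Thbd rested on the background correction. The other caveolar genes Cav1, Cav2, Cavin1 and Cavin3 stood between -0.49 and -0.29, all past the adjusted p. Klf2, a factor that blood flow induces, stood at 10.37, 10.53 and 10.12 at 4 h, against 10.80, 10.84 and 11.08 in sham, and its difference of -0.57 ± 0.11 passed the adjusted p just short of 1.5-fold. It crossed 1.5-fold without propranolol replicate 2 (-0.66), sham replicate 1 (-0.62) or sham replicate 2 (-0.60). The related Klf4 stood at 0.46 and also passed, with other probes at 0.23 and 0.61, of which the higher was called.

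Among genes of ligands, Hbegf, a growth factor of the EGF family, stood at 8.59, 8.47 and 8.52 at 4 h, against 9.83, 9.79 and 9.71 in sham, a 2.38-fold fall. Cxcl12, the chemokine that draws CXCR4-bearing cells, stood at 8.31, 8.34 and 8.28 at 4 h, against 9.50, 9.58 and 9.51 in sham, a 2.32-fold fall, and its other probes stood at -0.70 and -0.63. Csf1, the growth factor of macrophages, fell 2.04-fold and Vcam1, the adhesion molecule that captures leukocytes, 1.76-fold; these were the 2 calls in the lower direction among 19 tested NF-kB targets and chemokines, beside Cxcl10 in the higher direction. Pdgfb, which recruits pericytes, fell 1.74-fold, a call that rested on the background correction. Wnt7b, a ligand of brain vessels, fell 1.52-fold, a call that rested on the background correction, and dropped below the rule without propranolol replicate 3 (-0.58), sham replicate 1 (-0.58) or sham replicate 3 (-0.55).

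Among genes that answer growth factor signaling, Rgs16, which shortens the signal of G proteins, stood at 6.81, 6.72 and 6.85 at 4 h, against 8.12, 8.16 and 8.04 in sham, a 2.49-fold fall. Dusp14, a phosphatase of MAP kinases, stood at 6.35, 6.53 and 6.33 at 4 h, against 7.71, 7.83 and 7.80 in sham, a 2.60-fold fall. Phlda1, a protein induced by growth factors, and Errfi1, an inhibitor of the EGF receptor, fell 1.80-fold and 1.77-fold, and these were the 2 calls among 10 tested genes of MAP kinase feedback. Of this list, 5 genes passed the adjusted p with a higher level and 2 with a lower level, at a median of 0.15. Dusp6, the phosphatase of ERK, passed the adjusted p with a higher level, at 0.25. Irs2, which carries the insulin signal, and Cited2, a coregulator, fell 1.68-fold and 1.78-fold, and the call of Cited2 rested on the background correction.

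Genes for making ribosomes were lower by small amounts. Of 29 tested members, 4 were called lower and 0 higher, and 15 passed the adjusted p with a lower level and 1 with a higher level, at a median of -0.32, against 0.01 over all genes tested. Ddx21, an RNA helicase of the nucleolus, stood at 7.23, 7.24 and 7.34 at 4 h, against 8.46, 8.22 and 8.18 in sham, a 2.02-fold fall with an adjusted p of 7.6e-04. Nop2, an rRNA methyltransferase, fell 1.71-fold, Pes1, which joins the large subunit's assembly, 1.63-fold, and Nop56, a core protein of box C/D particles, 1.59-fold. Only the call of Pes1 rested on the background correction. Ncl and Gnl3, the genes of nucleolin and nucleostemin, stood at -0.40 and -0.45 past the adjusted p, with the second probe of Gnl3 called at -0.73, and Fbl and Npm1 at -0.02 and -0.06. Cd3eap, which joins RNA polymerase I, stood at 8.23, 8.32 and 8.46 at 4 h, against 9.54, 9.42 and 9.51 in sham, a 2.22-fold fall.

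Of 5 tested genes of the MYC and MAX network, 1 was called lower and 0 higher. In this list 2 genes passed the adjusted p with a higher level and 1 with a lower level, at a median of 0.24. The call was Myc, whose product is known to induce genes for making ribosomes, and its part in their fall was not tested. Myc stood at 5.97, 5.88 and 6.04 at 4 h, against 6.36, 6.61 and 6.74 in sham. The groups did not overlap, and the fall was 1.52-fold with an adjusted p of 0.0016. The probe was dim, the call rested on the background correction, and the value was -0.57 without propranolol replicate 2 and -0.52 without sham replicate 3. Srm, the spermidine synthase, which MYC is known to induce, stood at 10.65, 10.57 and 10.62 at 4 h, against 11.34, 11.32 and 11.41 in sham, a 1.67-fold fall that its other probes shared at -0.71 and -0.62.

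The genes closest to the drug's receptors showed no called change. None of 15 tested genes of the receptor and cyclic AMP machinery was called, at a median of 0.01, and 2 passed the adjusted p with a higher level and 1 with a lower level: Adcy6, an adenylyl cyclase, at 0.30 and Creb1, detected at 4 h only, at least 1.21-fold higher, and Akap12, an anchor of protein kinase A, at -0.30. Creb1 entered the comparison through the 4 h arrays only, so its p-value rests on sham signals that were not detected. None of the 7 tested cyclic AMP and CREB targets passed the adjusted p, at a median of 0.16. Fos stood at 6.61, 6.54 and 6.35 at 4 h, against 6.50, 6.47 and 6.27 in sham, with overlap and a difference of 0.09 ± 0.10. Fosb and Crem were the ends of the list at -0.22 and 0.26. Nr4a1 did not pass the detection rule. Without propranolol replicate 2, 1 gene of the machinery list was called higher. The cAMP response element, searched for as TGACGTCA, occurred in the promoters of 2.03% of all genes with one and 3.64% of the genes tested. It was held by 2.29% of the genes called higher and by 6.61% of those called lower, 8 of 121. Whether these shares differ was not tested.

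Immediate early genes, which serum and growth factors switch on within minutes, mostly did not pass the test at 4 h. Of 18 tested, Myc and Srf were called lower and Zfp36 higher, the 3 genes already given, each of which dropped below the rule without 1 or another array. Egr1 stood at 10.81, 10.76 and 10.98 at 4 h, against 11.24, 11.17 and 11.20 in sham, a difference of -0.35 ± 0.08 that passed the adjusted p. Jun and Junb stood at -0.10 and -0.11, and Id1 and Txnip, which answer BMP and glucose, at 0.11 and 0.16.

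Of 24 tested endothelial identity genes none was called, 2 passed the adjusted p with a higher level and 4 with a lower level, at a median of -0.10. The range was from -0.44 for Ets1 to 0.46 for Sox18, both transcription factors. Pecam1 and Emcn, surface proteins of endothelium, stood at -0.00 and 0.00. Tek, the angiopoietin receptor, overlapped between the groups at a difference of 0.04 ± 0.13. Krt19, a keratin that the line expresses, was the called member of the epithelial markers, at 7.34, 7.39 and 7.73 at 4 h, against 8.15, 8.54 and 8.52 in sham, a 1.89-fold fall; without sham replicate 2, 2 of these markers were called lower. None of 8 reference genes was called, at a median of -0.04.

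The 4 h and 24 h groups were both set against the same sham arrays, so their fold changes are not independent, and each is given as its own value. Hmgcs1 averaged log2 signals of 9.81 ± 0.07 in sham, 11.31 ± 0.08 at 4 h and 13.22 ± 0.05 at 24 h (SD, n = 3 each). Slc7a11 averaged 6.21 in sham, 7.12 at 4 h and 10.96 at 24 h, a log2 fold change over sham of 0.91 at 4 h and 4.75 at 24 h. Hmox1, Rsad2 and Lpin1 stood at log2 fold changes over sham of 1.54, 1.05 and 2.29 at 4 h, beside 3.03, 3.69 and 3.15 at 24 h. Ddit3, Dbp, Trib3 and Stx3, a membrane fusion protein, stood at 1.56, 1.17, 0.90 and 1.18 at 4 h, beside 1.34, 1.07, 0.82 and 1.16 at 24 h.

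Other genes were low at 4 h and not at 24 h. Il24 averaged 9.43 ± 0.04 in sham, 7.44 ± 0.06 at 4 h and 9.47 ± 0.06 at 24 h. Edn1 averaged 8.06 in sham, 6.32 at 4 h and 8.48 at 24 h, and Cxcl12 averaged 9.53, 8.31 and 9.47 over the same groups. Pdgfb averaged 7.23 ± 0.05 in sham, 6.44 ± 0.04 at 4 h and 10.16 ± 0.02 at 24 h, with a log2 fold change over sham of -0.80 ± 0.06 at 4 h and 2.93 ± 0.06 at 24 h. Gadd45b, Rgs16 and Thbd likewise stood at -0.78, -1.31 and -1.03 at 4 h, beside 1.26, 0.59 and 0.53 at 24 h. Ankrd1, Angptl4 and Ccn1 were low at both times, with -2.05, -2.05 and -1.40 at 4 h, beside -2.22, -2.33 and -1.54 at 24 h. Tek and Atf3, which did not pass the adjusted p at 4 h, stood at 2.69 and 2.70 at 24 h.

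**Figure D5:**
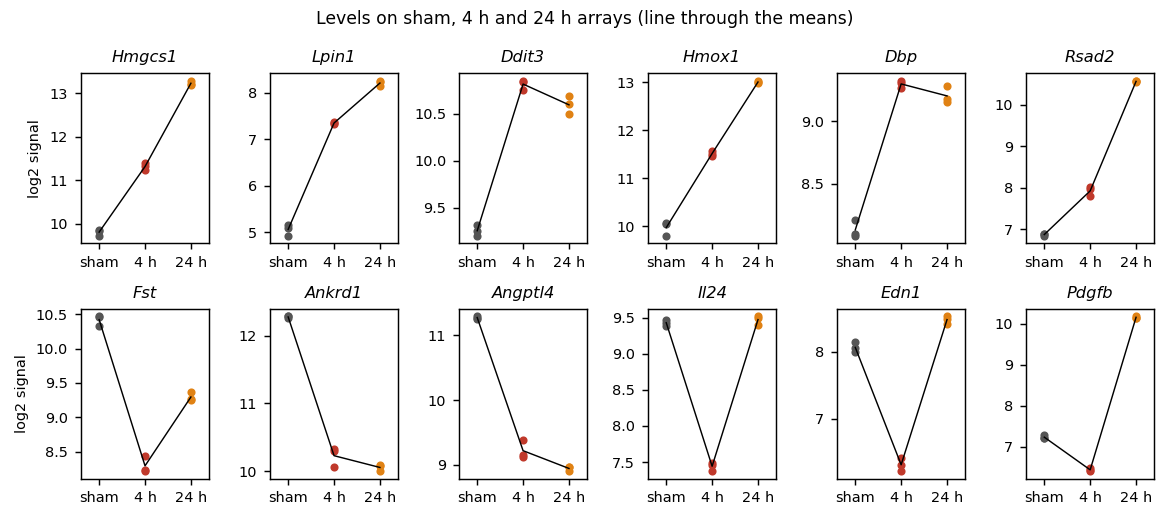
The log2 signal of 12 genes on the 3 sham arrays, the 3 arrays at propranolol 4 h and the 3 at 24 h, with a line through the group means; each y axis has its own range. Hmgcs1, Lpin1, Hmox1 and Rsad2 are higher at each later time, the means of Ddit3 and Dbp are highest at 4 h, and Il24, Edn1 and Pdgfb are lowest at 4 h.

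The remaining genes of the 20 largest changes in each direction belong to none of these lists. Those that rose were Fam214a at 2.63-fold, Arl11, a small GTPase, at 2.42-fold, Ddit4l, a relative of Ddit4, at 2.38-fold, and Dyrk1b, a kinase of quiescent cells, and Stx3, both at 2.27-fold. Those that fell were Selenbp1, which oxidizes methanethiol, at 2.36-fold, Gfpt2, of hexosamine synthesis, at 2.26-fold, Pbp2 at 2.19-fold and Spns3 at 2.18-fold. All kept their calls without the background correction. Arl11 stood at 7.62, 7.50 and 7.48 at 4 h, against 6.12, 6.27 and 6.39 in sham, and its groups were clearly apart. Pfkfb4, which adjusts glycolysis, was the only call among 22 tested glycolysis and hypoxia genes, at 1.62-fold higher, and it rested on the correction. A further 11 probes with no gene name were called higher and 11 lower.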

How the data were processed

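RNA of SVR cells had been hybridized by the authors to Illumina mouse bead arrays. The deposited table that was used holds intensity values (mean bead signal, not normalized) with a detection p-value per probe; per the file headers the deposited tables also give bead numbers and errors. A second table by the authors, in which every array's intensity was multiplied by a constant, was tried as an alternative. How the scanner data were exported is not given in the sources used here. Pooled RNA of 3 biological replicates, at another dose and 24 h, is what the methods describe. The dose and times here are those of the labels.

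Intensities were background-corrected on the detection p-values (normexp), given an offset of 16, quantile-normalized over all 9 arrays and put on the log2 scale with neqc of limma 3.58.1 in R 4.3.3. A probe needed a detection p under 0.05 on all 3 arrays of either group. The fit held 9 arrays in 3 groups (lmFit, eBayes), with the contrast propranolol 4 h minus sham and Benjamini-Hochberg adjustment. A gene was represented by its brightest tested probe; errors beside fold changes are standard errors. Genes were named through the platform annotation: 23978 probes had 1 symbol, 0 had several and 1719 had none. The text names the 20 largest called changes in each direction and up to 5 called members per list and direction. It also names genes from a fixed set of interest, though not every tested member of that set. Other genes were chosen after their values were seen. The members, lists and tests were chosen with earlier results of these data known. The number of arrays limits the precision: 3 against 3. Sequences are from RefSeq promoters (GRCm38.p6). The test was tried on simulated data. Replicate numbers did not pair the samples. Alternatives are in the closing section. Figures were drawn with matplotlib. A few items are not reported here.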

Additional observations from a re-analysis of the deposited data

How the results depend on the processing

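Without background correction, 55 genes were higher and 66 lower at 1.5-fold, and 10 and 10 at 2-fold. The authors' normalized table gave 56 and 78, and 10 and 12. Scaling to the 75th percentile without background correction gave 53 and 81, and 10 and 12, and an offset of 50 gave 80 and 86, and 14 and 14. These settings shrink the fold changes of dim probes. With no minimum fold, normexp and median centring gave 545 higher and 631 lower, and the methods' test without moderation gave 617 and 513. The detection limits, the 6 arrays alone, the mean of a gene's probes, the trend and robust prior and the BeadChip as a block kept each count within 1.5 times of its value. The BeadChip block set apart only 1 of the 24 h arrays, so it could not change the fold changes at 4 h. With the replicate block 163 genes were higher and 159 lower at 1.5-fold; same-numbered arrays correlated between -0.02 and -0.01 in their deviations, so the numbers were not treated as pairs. Leaving out 1 array gave 154 to 181 higher and 165 to 185 lower at 1.5-fold, 26 to 30 and 27 to 32 at 2-fold, and 810 to 923 and 709 to 811 at any fold. Of 93 called genes that the rule names, 61 kept their call and 0 changed direction under every alternative. The settings without background correction, the authors' table and the offset of 50 aside, 79 kept it. Over all named genes and alternatives, a call was lost 130 times, gained 8 times and unchanged 2159 times; list counts moved by over 1.5 times in 121 cases and did not in 1919. The smallest exact p that 3 against 3 arrays allow is 0.1, so no single-gene permutation test was used.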

Other observations

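The groups in this part were put together after the values were seen, so they are descriptions only. A first group held membrane proteins of the lysosome and proteins of membrane traffic, not all of them lysosomal. Of 18 tested, 11 were called higher and 0 lower, at a median log2 fold change of 0.60. Its members were chosen with their values known, so these figures do not show how frequent such genes were among the risers. The separate list of 23 lysosomal enzymes and membrane proteins given above held no call. Besides Ctns, the 11 calls included Hvcn1, a proton channel, at 0.82, Vps11, a tether of lysosome fusion, at 0.61, and Gpnmb, a glycoprotein of lysosomes, at 0.59. Clcn7 and Ostm1, the chloride exchanger of lysosomes and its partner, stood at 0.61 and 0.60. These 5 calls rested on the background correction. So did the rest, Rab29, Rab43, Rab3d, Zfyve1 and Plekhf2, genes of membrane traffic more broadly, at 0.63, 0.73, 0.61, 0.67 and 0.65. Of 14 tested genes of the lysosomal nutrient signal, 4 were called higher: Flcn (folliculin) at 0.87, its partner Fnip1 at 0.84, Tsc1, a brake on mTORC1, at 0.67, and Borcs6, which positions lysosomes, at 0.59. Flcn averaged 9.93 ± 0.06 at 4 h and 9.05 ± 0.04 in sham (SD, n = 3 each). Tsc1 was detected on only 1 sham array, and the calls of Tsc1 and Borcs6 rested on the background correction. Of 10 tested amino acid transporters, 3 were called higher, Slc6a9, Slc7a11 and Slc1a4, at 0.96, 0.91 and 0.73, of which Slc7a11 and Slc1a4 rested on the correction, while Slc7a6 and Slc1a5 stood at -0.49 and -0.47.

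Among the falls, 8 of 23 tested enzymes that cleave or modify tRNA and rRNA were called lower and 0 higher, at a median of -0.27. They include Pop1 of RNase P at -0.88, Trmt61a and Nsun2, which methylate tRNA, at -0.86 and -0.75, and the pseudouridine synthase Pus7 at -0.65; the calls of Nsun2 and Pus7 rested on the correction. Of 10 tested genes of RNA polymerase I, Cd3eap and Twistnb were called lower, at -1.15 and -0.76, the call of Twistnb resting on the correction, and Ubtf stood at 0.32. Of 13 tested histone H2A genes, 4 were called lower, from -1.07 for H2ac21 to -0.64 for H2ac11, and 9 passed the adjusted p with a lower level; these genes are close in sequence, and signals of one copy may reach the probe of another. All 3 tested CCN genes fell, Ccn4 at -0.72 beside Ccn1 and Ccn2. Nrg1, a neuregulin, fell by 0.98 on the log2 scale beside Hbegf, and of 14 tested dual-specificity phosphatases Dusp8 and Dusp14 were called lower, at -0.87 and -1.38, the call of Dusp8 resting on the correction.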
